A study of Mus musculus with 4 samples.

Results

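The genes described here are 10 C-type lectin receptors of myeloid cells: Mrc1, Clec10a, Mgl2, Cd209a, Cd209d, Clec7a, Clec4n, Clec4e, Clec4d and Clec9a. They were listed by symbol, with earlier results of these data known, and followed across every cell class and all 4 libraries. Of the 10, 9 were measured, among 27998 genes in all. Clec7a, which encodes Dectin-1, was not analysed here.

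C-type lectin receptors bind sugars and other ligands through a shared fold and are carried by macrophages, dendritic cells, monocytes and granulocytes. Some mainly take up glycoproteins for degradation or antigen presentation, such as the mannose receptor. Others, such as Dectin-2 and Mincle, pair with the adaptor FcRγ and signal through the kinase Syk and the adaptor CARD9 when they meet fungal, mycobacterial or self ligands. The mannose receptor and the macrophage galactose-type lectins are also widely used as markers of alternatively activated macrophages, the state that type 2 cytokines induce in allergic tissue.

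The libraries held CD45+ cells from the nasal mucosa of C57BL/6 mice aged 8 weeks, with 1 library for each treatment: Vehicle and Ribavirin without allergen, and Vehicle-OVA and Ribavirin-OVA with it. The allergen was ovalbumin (OVA), with which the allergic rhinitis model was raised by sensitisation with an adjuvant followed by doses into the nose, and ribavirin is an antiviral nucleoside analogue. The number of mice behind a library, and the dose and timing of ribavirin, were not given in the sources used here. The labels name magnetic enrichment of CD45+ cells, whereas the series text names fluorescence-activated sorting.

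The libraries held 10311 to 28277 cell barcodes and 91742940 to 171873110 unique molecular identifiers (UMIs), and 70227 cells passed the filters. Each pair of libraries shared 57 to 174 barcodes, 0.553 to 0.909% of the smaller library. The shallowest barcode of Ribavirin had 1782 UMIs, whereas those of the other libraries had 500 or 501. Clusters fell into classes named by their markers, and 1569 epithelial-like, 542 olfactory neuron-like and 279 stromal-like cells stood among the CD45+ cells. Levels are given as CPM, the UMIs of a gene relative to all UMIs of that class in that library, so they are compared within a gene and not between genes. Each has an exact Poisson 95% interval, and each fold an exact binomial one, which cover counting error only. With 1 library in each group there was no test of a treatment, and the spread between mice or libraries could not be measured. A gene was called higher or lower where its fold was at least 2 (or at most 0.5), its interval left out 1, and the pair held at least 50 UMIs of it. The OVA comparison was made as a vehicle pair (Vehicle-OVA over Vehicle) and as a ribavirin pair (Ribavirin-OVA over Ribavirin), and the ribavirin comparisons use the same 4 libraries again.

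The 9 receptors fell on different myeloid classes. Mrc1 was highest in macrophage-like cells, and 91.2 to 95.3% of its UMIs in each library came from them. Clec10a, Cd209a and Cd209d were shared between conventional type 2 dendritic cell-like (cDC2-like) and plasmacytoid dendritic cell-like (pDC-like) cells, and Mgl2 was highest in cDC2-like cells. Clec9a was highest in cDC1-like cells. Clec4e and Clec4d were highest in neutrophil-like cells, which held 57.3 to 88.5% and 68.9 to 89.1% of their UMIs. Clec4n was at similar levels in neutrophil-like and macrophage-like cells, whose ranges over the libraries overlapped, and was above both in the unnamed cluster 5, which was led by Siglecf, Gpc3 and Adamdec1.

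**Figure D1:**
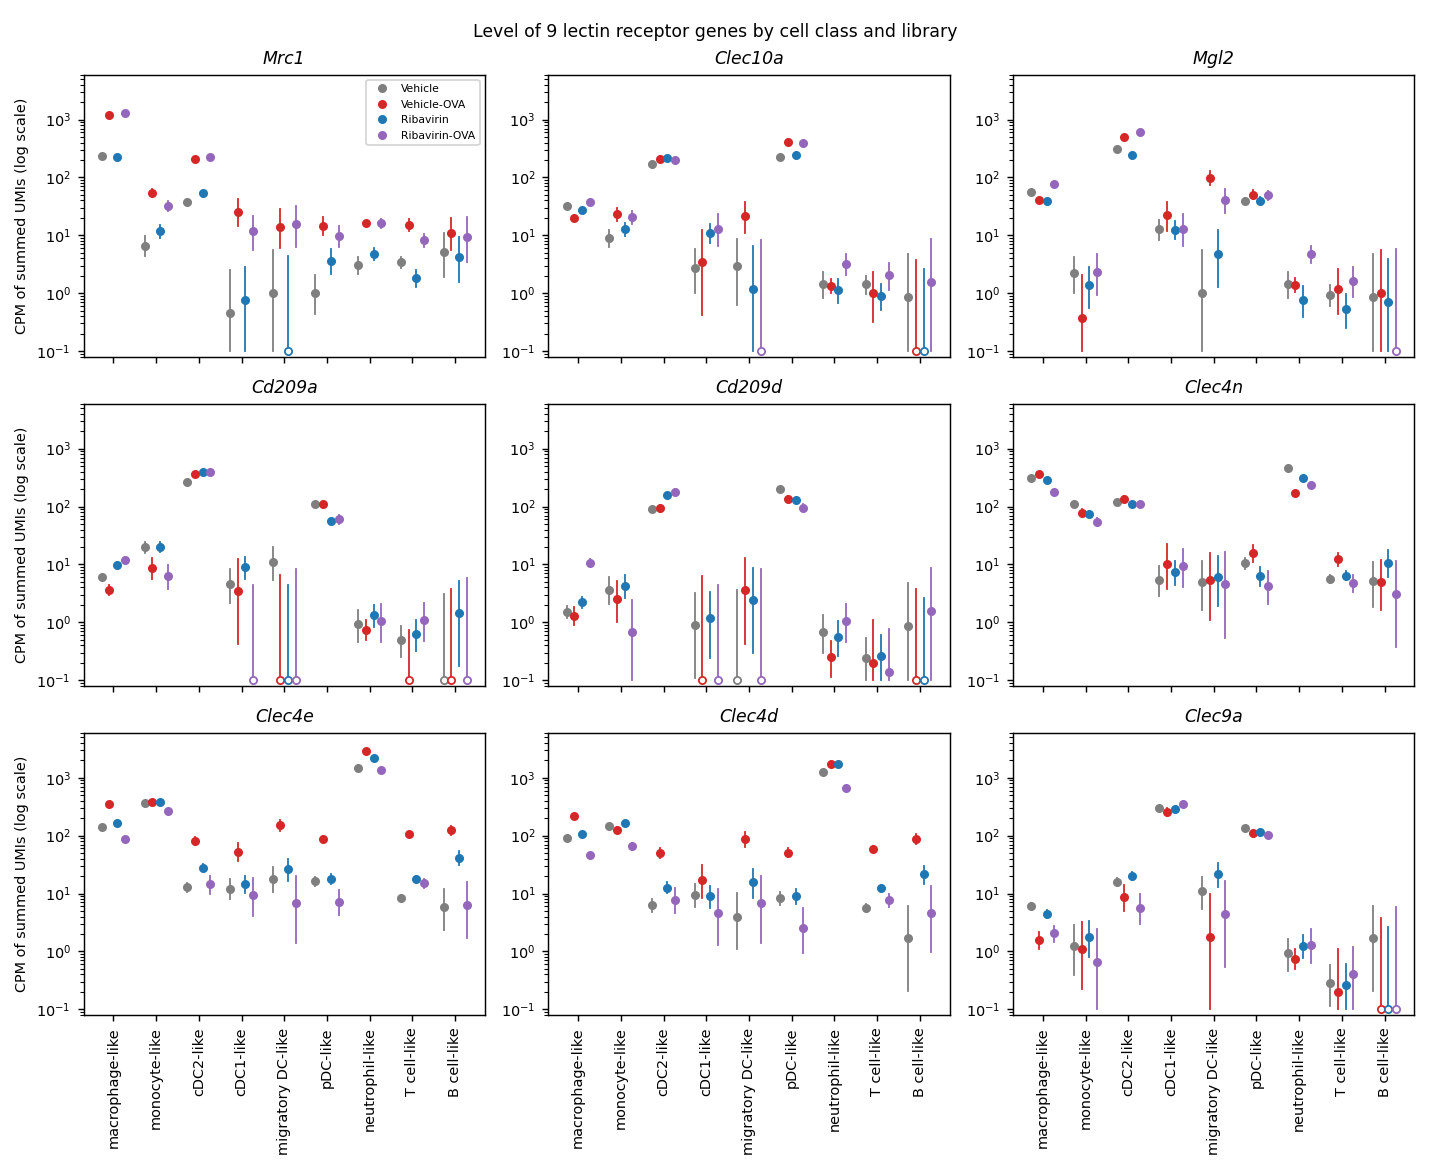
Level of each of the 9 receptors in each cell class (CPM, log axis), with 1 point for each library and bars for the exact Poisson 95% interval, cut at 0.1, where libraries with 0 UMIs are drawn as open circles. Mrc1 stands highest in macrophage-like cells, at 228 to 1308 CPM, and Clec4e and Clec4d in neutrophil-like cells, at 1378 to 2933 and 674 to 1720 CPM.

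**Figure D2:**
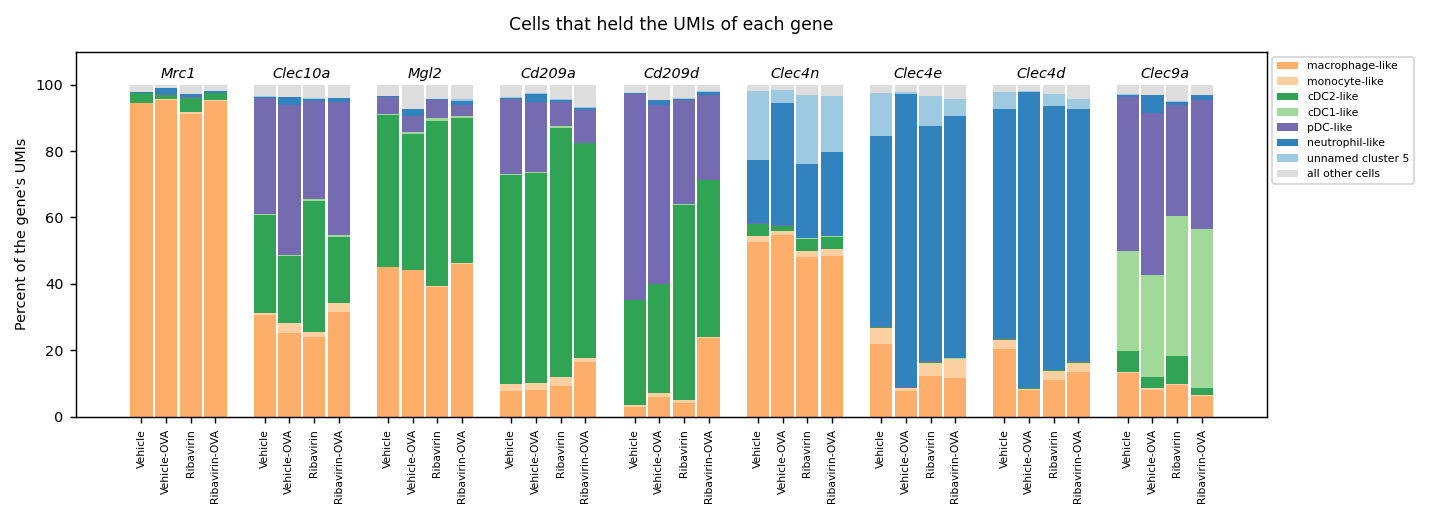
Share of each receptor's UMIs (percent) that came from each cell class in each library. Macrophage-like cells held 91.2 to 95.3% of Mrc1 UMIs in the 4 libraries, whereas the UMIs of Clec10a were divided between pDC-like, cDC2-like and macrophage-like cells.

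Free RNA in the droplets gives UMIs in cells that do not express a gene, so each level was read beside that of T cell-like cells. In those cells Mrc1 was at 3.40 CPM in Vehicle, 15.03 in Vehicle-OVA, 1.83 in Ribavirin and 8.30 in Ribavirin-OVA. Where values follow without names, they stand in this order of libraries. Clec4e was at 8.33, 107, 17.8 and 14.97 CPM and Clec4d at 5.66, 59.3, 12.3 and 7.62 CPM. Thus all 3 were above their Vehicle value in the T cell-like cells of Vehicle-OVA. The other 6 receptors were at 12.3 CPM or less in T cell-like cells. A level at or below that of T cell-like cells of the same library is read here as background.

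Mrc1 encodes the mannose receptor CD206, which internalises mannosylated glycoproteins. In macrophage-like cells it was at 230.3 CPM in Vehicle, 1216 in Vehicle-OVA, 228 in Ribavirin and 1308 in Ribavirin-OVA. Both OVA libraries therefore stood well above both libraries without OVA. The fold with OVA was 5.28 (5.17 to 5.40) in the vehicle pair and 5.75 (5.61 to 5.89) in the ribavirin pair. With ribavirin it was 0.988 (0.960 to 1.02) without OVA and 1.08 (1.06 to 1.09) with OVA, so neither pair reached the 2-fold limit. When each cell was thinned to 1000 UMIs, Mrc1 was detected in 14.0, 45.0, 16.1 and 51.4% of macrophage-like cells in the same order of libraries, against 0.216, 1.42, 0.164 and 1.03% of T cell-like cells. At full depth Mrc1 was detected in 41.6, 70.1, 45.8 and 76.6% of macrophage-like cells and 0.870, 5.31, 1.08 and 4.74% of T cell-like cells. Thinning left out 117, 242, 0 and 191 macrophage-like and 82, 44, 0 and 33 T cell-like cells, whose classes had median depths of 7880 to 9569 and 4150 to 5108 UMIs. The shares thus had the same order of OVA and other libraries as the levels, and the 10 cells with the most Mrc1 held only 4.59 to 7.49% of its UMIs.

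Mrc1 lies on chr2:14229392-14332057 (GRCm38, plus strand). Its promoter is shown because Mrc1 was the receptor called higher with OVA in both pairs. The 250 bases before the start are from RefSeq (GRCm38.p6, chr2:14229164-14229413, plus strand), written 5′ to 3′, with matches to GAGGAA, the core of PU.1 sites, on either strand in capitals.
Mrc1: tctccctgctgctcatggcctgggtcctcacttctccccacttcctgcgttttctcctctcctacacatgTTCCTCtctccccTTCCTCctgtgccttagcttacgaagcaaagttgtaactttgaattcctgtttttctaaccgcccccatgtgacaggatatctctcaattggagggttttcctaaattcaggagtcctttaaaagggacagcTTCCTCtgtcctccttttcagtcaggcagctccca
This window held 3 matches to GAGGAA, which 23.3% of 32851 mouse promoters of this length also held at least once. It held no match to TTGCNNAA (C/EBP, found in 9.56% of promoters) or TGANTCA (AP-1, 6.75%), each searched on both strands. Of the 10 receptors, 8 had a promoter in the table, and GAGGAA was found in those of Cd209d, Clec4d, Clec4e, Clec7a, Mgl2 and Mrc1. A match describes the letters only.

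The macrophage-like class was made of different clusters with and without OVA, which bears on every fold in it. Cluster 7, whose leading genes were Ccl24, Arg1 and Retnla, made up 0.486% of the class in Vehicle, 89.7% in Vehicle-OVA, 1.65% in Ribavirin and 86.9% in Ribavirin-OVA. Cluster 4, led by Ly6i, Cxcl9 and Cfb, held 67.4, 4.59, 57.4 and 5.94%, and cluster 9, led by Ccl7, Vcam1 and Ccl12, held 22.7, 1.39, 32.9 and 2.48%. The receptors themselves were left out of the clustering. When clusters were divided further, 1490 and 285 of the 5784 cells of cluster 4 formed subclusters named monocyte-like and 173 one named cDC2-like. The largest of these, subcluster 4.1, held 807, 50, 611 and 22 cells in the same order of libraries. Of the 4151 cells of cluster 7, 655 formed a subcluster named osteoclast-like. A further 773 and 350 formed unnamed subclusters with 7 and 8 of 9 macrophage markers, and 329 formed another unnamed one. Cluster 16, led by Crybb1 and Fcrls, held the remaining 4.33 to 9.47%. The 9 macrophage markers summed to 40385 and 40229 CPM in Vehicle and Ribavirin but to 17916 and 22937 CPM in Vehicle-OVA and Ribavirin-OVA.

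Within clusters the Mrc1 difference was not uniform. In cluster 7 it was at 177 CPM in Vehicle, from 30 UMIs in 25 cells, 1315 in Vehicle-OVA, 400.4 in Ribavirin and 1471 in Ribavirin-OVA. In cluster 4 it was at 75.5, 92.3, 87.3 and 173 CPM, and in cluster 9 at 545, 691, 429.9 and 719.6 CPM. Cluster 16 went the other way in the vehicle pair, with 673 CPM in Vehicle and 270.2 in Vehicle-OVA, and held 403 CPM in Ribavirin and 371 in Ribavirin-OVA. So the cells with OVA were not higher in every cluster, and how much of the class fold came from its makeup was not tested. The ribavirin pair gave folds of 1.98 in cluster 4 and 1.67 in cluster 9. When cluster 4 was left out, the log2 ratio of Mrc1 was 1.15 in the vehicle pair and 1.72 in the ribavirin pair, against 2.40 and 2.52 with it.

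**Figure D3:**
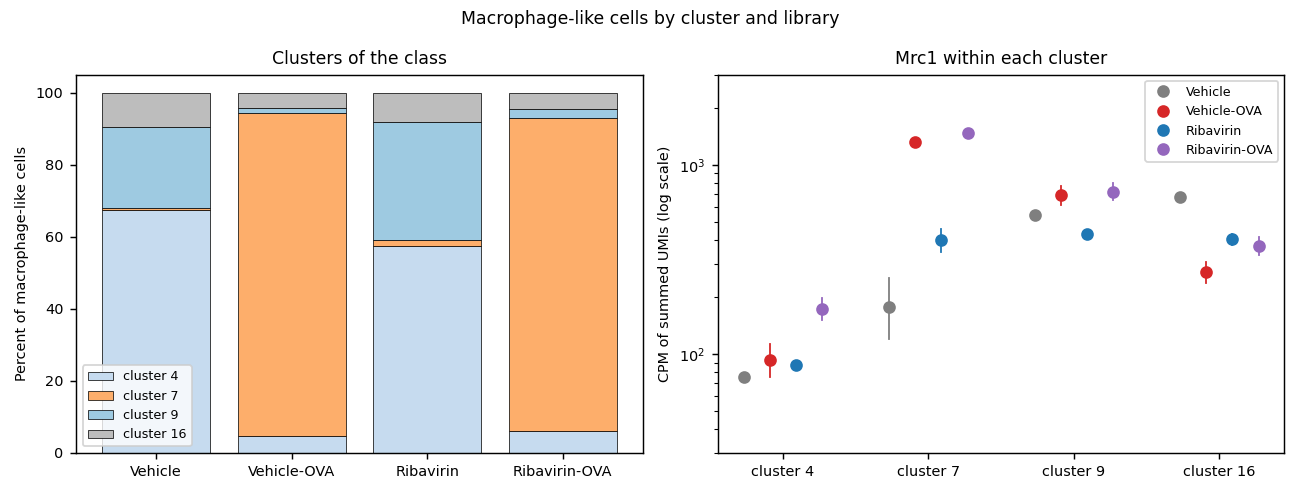
Mrc1 level (CPM, log axis) in macrophage-like clusters 4, 7, 9 and 16 in each library, with exact Poisson 95% intervals, beside the share of macrophage-like cells that each cluster held. Cluster 7 holds 89.7 and 86.9% of the class in the OVA libraries and reaches 1315 and 1471 CPM there.

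Mrc1 was highest in small subclusters. Subcluster 16.6, a group of 51 cells led by Lyve1, Cd209f and Cd209g, held 5119, 4059, 3622 and 5037 CPM of Mrc1, and 788, 624, 615 and 1308 CPM of Clec10a. Lyve1 encodes a hyaluronan receptor carried by some resident tissue macrophages. Its Mrc1 levels with and without OVA overlapped, but only 3 and 2 of its cells came from the OVA libraries. The unnamed subcluster 7.6, led by Cd163, Retnla and Folr2, held 157 cells of Vehicle-OVA and 193 of Ribavirin-OVA and none of the other libraries. There Mrc1 was at 4127 and 2685 CPM.

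Outside macrophages, Mrc1 was also higher with OVA in cDC2-like and monocyte-like cells. In cDC2-like cells it was at 37.9 CPM in Vehicle, 207 in Vehicle-OVA, 53.4 in Ribavirin and 226 in Ribavirin-OVA, with folds of 5.45 (4.71 to 6.32) and 4.24 (3.71 to 4.84). In monocyte-like cells it was at 6.60, 53.3, 11.6 and 32.6 CPM, with folds of 8.07 (5.32 to 12.7) and 2.80 (2.01 to 3.93). These levels were above those of T cell-like cells in each of the 4 libraries. The cDC2-like class, too, was made of different subclusters with and without OVA. Its subcluster led by Cyp7b1 and Cd209e held 34 of 814 cells in Vehicle and 132 of 155 in Vehicle-OVA. The same subcluster held 24 of 642 cells in Ribavirin and 131 of 150 in Ribavirin-OVA. As few as 10 cDC2-like cells held 45.6% of the Mrc1 UMIs in Vehicle-OVA and 44.3% in Ribavirin-OVA. How much of the cDC2-like folds came from makeup was not tested. The monocyte-like class was also made of different subclusters with and without OVA. Subclusters 14.3 (led by Vcan and F13a1) and 14.4 (led by Ace and Cd300e) held 7 and 5 of 606 cells in Vehicle, 170 and 98 of 292 in Vehicle-OVA, 12 and 11 of 691 in Ribavirin, and 111 and 129 of 303 in Ribavirin-OVA. In subcluster 14.3 Mrc1 was at 80.9 CPM in Vehicle-OVA and 56.0 in Ribavirin-OVA, with 0 UMIs in the few cells of the other libraries, so the folds of the class cannot be told apart from its makeup. In neutrophil-like cells Mrc1 was at 3.02, 16.3, 4.81 and 16.3 CPM, close to the T cell-like values in the vehicle libraries and above them in the ribavirin libraries. In Ribavirin, 10 of these cells held 50.6% of the 77 Mrc1 UMIs, and a single cell held 16. The part of free RNA in the Mrc1 folds of 5.38 and 3.38 was not tested.

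Clec10a and Mgl2 encode the galactose-type lectins MGL1 and MGL2, which bind terminal galactose and N-acetylgalactosamine. They lie next to each other on chromosome 11, Mgl2 at chr11:70130329-70137550 and Clec10a at chr11:70156197-70170834, both on the plus strand. Clec10a was highest in pDC-like cells, at 225 CPM in Vehicle, 417 in Vehicle-OVA, 246 in Ribavirin and 389 in Ribavirin-OVA. Both OVA libraries were above both others there. In cDC2-like cells it was at 169, 210.2, 219 and 199 CPM, with no separation by OVA. In macrophage-like cells it was at 31.4, 20.2, 27.0 and 36.9 CPM, so the OVA fold was 0.642 (0.580 to 0.710) in the vehicle pair and 1.37 (1.24 to 1.505) in the ribavirin pair. As few as 10 cells held 34.3% of the Clec10a UMIs of macrophage-like cells in Vehicle-OVA and 25.6% in Ribavirin-OVA.

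Mgl2 was highest in cDC2-like cells, at 312 CPM in Vehicle, 491 in Vehicle-OVA, 244 in Ribavirin and 615 in Ribavirin-OVA. The OVA libraries were the higher ones, with a fold of 1.57 (1.46 to 1.69) in the vehicle pair, under the limit, and of 2.52 (2.35 to 2.71) in the ribavirin pair. The share of cDC2-like cells with Mgl2, thinned, was 17.4, 26.3, 13.4 and 33.1%, and it was at most 0.216% in T cell-like cells. Unthinned, it was 37.3, 53.5, 31.9 and 65.3%, and thinning left out at most 4 cDC2-like cells of a library. As in the macrophages, the makeup of the class differed: subcluster 8.3, led by Cyp7b1 and Cd209e, held 34 of 814 cDC2-like cells in Vehicle, 132 of 155 in Vehicle-OVA, 24 of 642 in Ribavirin and 131 of 150 in Ribavirin-OVA. Inside subcluster 8.3 Mgl2 was at 331 CPM in Vehicle, 561 in Vehicle-OVA, 370.3 in Ribavirin and 692 in Ribavirin-OVA. In macrophage-like cells Mgl2 was at 55.2, 40.5, 38.5 and 76.6 CPM. The fold there was 0.733 (0.682 to 0.788) in the vehicle pair and 1.99 (1.85 to 2.14) in the ribavirin pair, just under the limit.

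Migratory dendritic cell-like cells held Mgl2 mostly with OVA. The class counted 1 UMI in Vehicle, 56 in Vehicle-OVA, 4 in Ribavirin and 18 in Ribavirin-OVA, from 166, 54, 97 and 49 cells. The vehicle pair gave a fold of 99.6 with a counting interval of 17.2 to 4005, which rests on that single UMI. In macrophage-like cells, thinned, cells with Mrc1 also had Mgl2 more often than cells without it, at 5.97 against 3.22% in Vehicle, 3.59 against 1.28% in Vehicle-OVA, 5.30 against 2.17% in Ribavirin and 6.35 against 2.48% in Ribavirin-OVA.

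Cd209a and Cd209d belong to the mouse family of genes related to human DC-SIGN, an adhesion and uptake receptor for mannose and fucose. They lie near each other on chromosome 8, at chr8:3743397-3748984 and chr8:3871824-3878555, both on the minus strand, and reads of such close relatives can be hard to assign. Cd209a was highest in cDC2-like cells, at 269 CPM in Vehicle, 366 in Vehicle-OVA, 403 in Ribavirin and 401 in Ribavirin-OVA, with no call in either OVA pair. In pDC-like cells it was at 109 and 109 CPM in the vehicle libraries and at 56.8 and 59.8 CPM in the ribavirin libraries. The 2 ribavirin libraries were thus the lower ones, whether or not OVA was given. In monocyte-like cells Cd209a was at 19.8 CPM in Vehicle, 8.76 in Vehicle-OVA, 19.8 in Ribavirin and 6.32 in Ribavirin-OVA. The folds with OVA, 0.442 (0.268 to 0.705) and 0.320 (0.185 to 0.525), were called lower in both pairs, from 24 and 19 UMIs in the OVA libraries. In Vehicle and Ribavirin, 50 and 81 of the Cd209a UMIs came from subcluster 14.1, which held 172 and 292 cells there but 1 cell of Vehicle-OVA and 7 of Ribavirin-OVA.

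Cd209d was at 198 CPM in Vehicle, 134 in Vehicle-OVA, 128 in Ribavirin and 96.2 in Ribavirin-OVA in pDC-like cells. In cDC2-like cells it was at 89.0, 93.1, 161 and 181 CPM. Both ribavirin libraries were above both vehicle libraries, by 1.81-fold (1.65 to 1.98) without OVA and 1.95-fold (1.63 to 2.33) with OVA. With OVA, 10 cells held 68.3% of these UMIs in Vehicle-OVA and 62.7% in Ribavirin-OVA. Without OVA the makeup of the class differed. A cDC2-like subcluster with Cd209d among its leading genes held 56 cells of Ribavirin and 0 of Vehicle. How much of the ribavirin folds came from makeup or from few cells was not tested. Subcluster 8.8, led by Cd209d itself, Cd209e and Hrh1, held 884 and 789 CPM in Vehicle and Ribavirin and 254 and 199 CPM in Vehicle-OVA and Ribavirin-OVA, the latter from 25 and 15 UMIs. In macrophage-like cells Cd209d was at 1.495, 1.29, 2.20 and 10.7 CPM. The high value in Ribavirin-OVA came from few cells, as 187 of its 209 UMIs (89.5%) were in 10 cells and 87 were in a single cell. The same held for Cd209a, at 5.96, 3.601, 9.95 and 12.02 CPM, where 10 cells held 79.1% of the UMIs in Ribavirin-OVA.

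Clec9a encodes DNGR-1, which binds actin filaments exposed by dead cells and serves cross-presentation in cDC1. It lies on chr6:129408862-129424763, plus strand. In cDC1-like cells it was at 304 CPM in Vehicle, 260.1 in Vehicle-OVA, 284 in Ribavirin and 355 in Ribavirin-OVA. None of the 4 pairs reached the 2-fold limit, with folds of 0.855 (0.712 to 1.02) and 1.25 (1.09 to 1.43) with OVA. The class held 188, 70, 221 and 74 cells, with median depths of 11745 and 11500 UMIs in Vehicle and Ribavirin but 2419 and 3652 in Vehicle-OVA and Ribavirin-OVA. In pDC-like cells Clec9a was at 133, 109, 118 and 104 CPM. In macrophage-like cells Clec9a was rare, at 6.02 CPM in Vehicle, 1.57 in Vehicle-OVA, 4.48 in Ribavirin and 2.05 in Ribavirin-OVA, against at most 0.408 CPM in T cell-like cells. The folds with OVA were 0.260 (0.182 to 0.363) and 0.459 (0.316 to 0.652), from 40 UMIs in each OVA library. Without cluster 4 the log2 ratio in the vehicle pair was -0.87, short of the limit.

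Clec4n, Clec4d and Clec4e encode Dectin-2, MCL and Mincle, receptors for fungal mannans and for mycobacterial and self glycolipids. They lie together on chromosome 6 (GRCm38), Clec4n at chr6:123229843-123247021, Clec4d at chr6:123262111-123275265 and Clec4e on the minus strand at chr6:123281789-123289870. The promoters of Clec4d and Clec4e are shown because these 2 neighbours had nearly the same pattern over the classes, with matches to GAGGAA (PU.1) and TTGCNNAA (C/EBP) in capitals. Both are from RefSeq (GRCm38.p6), 5′ to 3′ on the strand of the gene, Clec4d from chr6:123261857-123262106 and Clec4e from chr6:123289872-123290121.
Clec4d: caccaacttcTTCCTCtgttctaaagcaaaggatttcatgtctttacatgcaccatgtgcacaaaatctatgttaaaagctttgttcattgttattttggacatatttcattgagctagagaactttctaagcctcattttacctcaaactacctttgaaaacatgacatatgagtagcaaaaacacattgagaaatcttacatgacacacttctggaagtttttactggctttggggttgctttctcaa
Clec4e: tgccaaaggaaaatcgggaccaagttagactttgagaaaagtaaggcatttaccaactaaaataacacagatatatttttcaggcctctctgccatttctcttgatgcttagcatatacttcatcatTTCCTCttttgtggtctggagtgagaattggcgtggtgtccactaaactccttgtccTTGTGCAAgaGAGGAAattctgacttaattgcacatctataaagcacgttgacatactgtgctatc
The Clec4d window held 1 match to GAGGAA, and the Clec4e window held 2 and the only TTGCNNAA match among the 8 receptors with a promoter. Neither held a match to TGANTCA.

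In neutrophil-like cells Clec4e was at 1501 CPM in Vehicle, 2933 in Vehicle-OVA, 2190.1 in Ribavirin and 1378 in Ribavirin-OVA. Clec4d was at 1257, 1716, 1720 and 674 CPM. Vehicle-OVA was the highest library for Clec4e, and Ribavirin-OVA was the lowest for both genes. The fold of Clec4e with OVA was 1.95 (1.92 to 1.99) in the vehicle pair and 0.629 (0.616 to 0.643) in the ribavirin pair, both short of the limit. These folds are not relative to the median log2 ratio of all genes in the class. That median lay the opposite way to Clec4e in each pair, at -0.39 and 0.47. Clec4d had folds of 1.37 (1.34 to 1.39) and 0.392 (0.381 to 0.404). The neutrophil-like cells of the libraries came from different clusters: cluster 2, led by Csf3, Serpinb2 and Mreg, held 7177 of 10892 cells in Vehicle-OVA, whereas cluster 1, led by H2-Q10, Cxcr2 and Lrg1, held 4052 of 4464 in Vehicle, 4261 of 4741 in Ribavirin and 1200 of 2094 in Ribavirin-OVA. Within cluster 1 Clec4e was at 1587, 1465, 2420 and 1378 CPM, and within cluster 2 at 1808, 3491, 3699 and 2557 CPM. Inside cluster 1, therefore, Vehicle-OVA was not above Vehicle, with a fold of 0.923 (0.896 to 0.951).

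Clec4n in neutrophil-like cells was at 469 CPM in Vehicle, 174 in Vehicle-OVA, 306 in Ribavirin and 239 in Ribavirin-OVA. It was lower in Vehicle-OVA, with a fold of 0.372 (0.359 to 0.386), the opposite direction to Clec4e in the class as a whole. Within cluster 1 the vehicle pair gave Clec4n a fold of 0.762 (0.720 to 0.806), not called, beside 0.923 for Clec4e. Within cluster 2 the folds were 0.246 (0.221 to 0.275) and 1.93, from only 202 cells of Vehicle. The median log2 ratio of all genes in neutrophil-like cells was -0.39 in the vehicle pair and 0.47 in the ribavirin pair, and relative to it the log2 ratio of Clec4n was -1.04 and -0.83. Of the 6 receptors with enough UMIs in the vehicle pair, 1 was called higher (Mrc1) and 1 lower (Clec4n), beside 7.72 and 23.8% of all genes tested in this class. Of 4 in the ribavirin pair, 1 was called higher (Mrc1) and 1 lower (Clec4d), beside 18.7 and 2.34%.

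In macrophage-like cells the Mincle and MCL genes went opposite ways in the 2 OVA pairs. Clec4e was at 139 CPM in Vehicle, 359 in Vehicle-OVA, 165 in Ribavirin and 86.0 in Ribavirin-OVA. Clec4d was at 89.9, 216, 106 and 46.0 CPM, and Clec4n at 317, 367, 293 and 177 CPM. Vehicle-OVA was the highest library and Ribavirin-OVA the lowest for all 3. Clec4e had a fold with OVA of 2.58 (2.5004 to 2.66) in the vehicle pair and 0.523 (0.495 to 0.552) in the ribavirin pair. Clec4d had folds of 2.41 (2.31 to 2.503) and 0.435 (0.404 to 0.468), and Clec4n of 1.16 (1.13 to 1.19) and 0.605 (0.582 to 0.629). Between the OVA libraries, Ribavirin-OVA over Vehicle-OVA, the folds were 0.240 (0.227 to 0.253) for Clec4e, 0.213 (0.198 to 0.228) for Clec4d and 0.483 (0.464 to 0.502) for Clec4n.

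Neutrophil RNA, like these values, was highest in Vehicle-OVA. From Ribavirin to Ribavirin-OVA the 8 neutrophil markers went from 667 to 611 CPM in macrophage-like cells. In T cell-like cells they went from 733 to 456 CPM. Clec4e went from 165 to 86.0 and from 17.8 to 14.97 CPM in these classes. From Vehicle to Ribavirin the markers went down in macrophage-like cells and up in T cell-like cells. Clec4e and Clec4d were higher in Ribavirin than in Vehicle in both classes. The 8 neutrophil markers summed to 751 CPM in the macrophage-like cells of Vehicle, 2052 in Vehicle-OVA, 667 in Ribavirin and 611 in Ribavirin-OVA, and none of the 8 was at 0 in any library. In T cell-like cells they summed to 500.3, 1495, 733 and 456 CPM. With the level of T cell-like cells subtracted, the log2 ratios of Clec4e with OVA were 0.95 in the vehicle pair and -1.05 in the ribavirin pair, and those of Clec4d were 0.90 and -1.28. The vehicle pair then fell short of the 2-fold limit for both genes and kept its direction. For each 1000 UMIs of the neutrophil markers, macrophage-like cells held 185, 175, 247 and 141 UMIs of Clec4e, and neutrophil-like cells held 14.5, 38.9, 16.7 and 13.5. T cell-like cells held 16.6, 71.5, 24.3 and 32.8. The part of neutrophil RNA in the remaining difference was not tested.

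**Figure D4:**
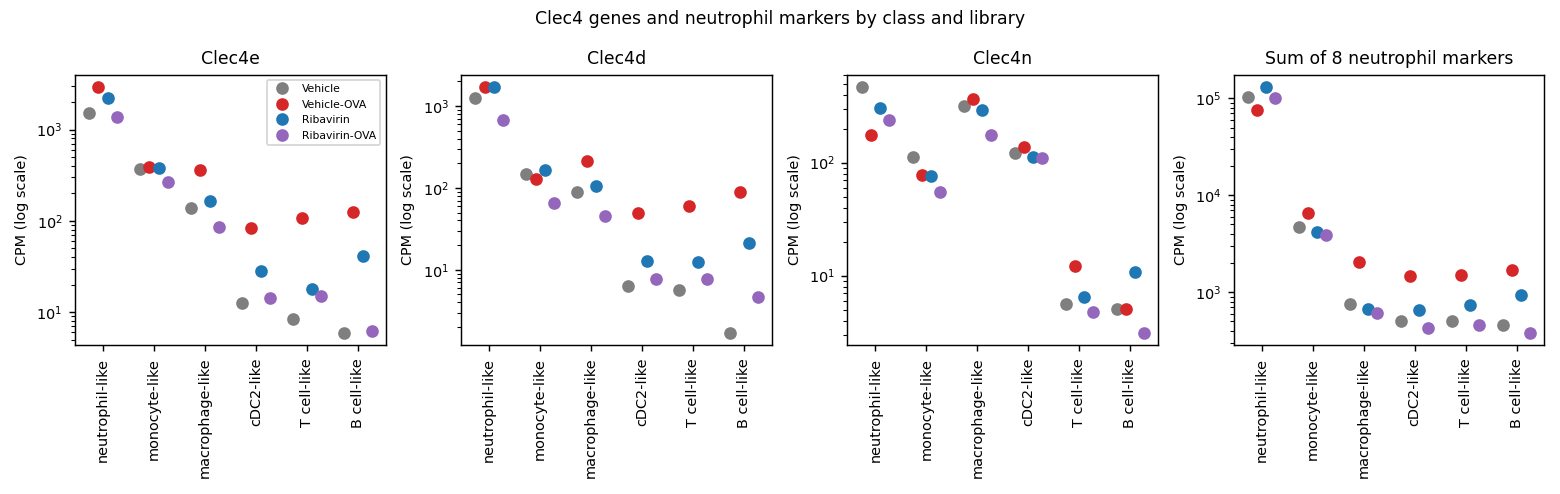
Levels of Clec4e, Clec4d and Clec4n and the sum of 8 neutrophil markers (CPM, log axes with a range of their own in each panel) in 6 classes, with 1 point for each library. Vehicle-OVA is the highest library for the marker sum in macrophage-like, cDC2-like and T cell-like cells, at 2052, 1468 and 1495 CPM, and for Clec4e in the same classes, at 359, 82.4 and 107 CPM.

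Inside macrophage-like clusters 4 and 7 Clec4e was lower in Ribavirin-OVA than in Vehicle-OVA. In cluster 9 the Vehicle-OVA level was below that of T cell-like cells and the pair held too few UMIs for a call (39 and 8), and in cluster 16 the Ribavirin-OVA level was below that of T cell-like cells. Clec4e was at 418 and 125 CPM in cluster 4, 367 and 88.8 in cluster 7, 92.3 and 15.5 in cluster 9 and 191 and 13.5 in cluster 16, for Vehicle-OVA and Ribavirin-OVA. In cluster 7, which held most OVA cells, the fold of Clec4e in the vehicle pair was 0.904, from 69 UMIs in Vehicle. Without cluster 4 the log2 ratio of Clec4e was 3.93 in the vehicle pair and 0.78 in the ribavirin pair, and that of Clec4d was 2.35 and -0.09, so the direction of Clec4e in the ribavirin pair and the call of Clec4d there rested on that cluster. At resolution 2 the log2 ratio of Clec4e in the ribavirin pair was 0.52, and the call of Clec4d there was lost too. The difference between the OVA libraries kept its call for both genes without cluster 4. Macrophage-like cells with Clec4d, thinned, also had Clec4e more often than those without, at 23.4 against 9.69% in Vehicle, 39.0 against 23.8% in Vehicle-OVA, 27.8 against 10.7% in Ribavirin and 18.2 against 7.19% in Ribavirin-OVA.

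In cDC2-like cells Clec4e was at 12.7, 82.4, 28.0 and 14.3 CPM, and Clec4d at 6.26, 49.9, 12.7 and 7.81 CPM. In Vehicle-OVA both genes were below the T cell-like level, so these values are read as background although the vehicle pair passed the call. The shares of thinned cDC2-like cells with Clec4e were 1.11, 11.2, 3.27 and 1.35%, against 0.670, 9.50, 1.97 and 1.28% of T cell-like cells. Unthinned, they were 9.71, 54.8, 19.9 and 13.3% against 3.52, 34.7, 8.65 and 5.49%, with cDC2-like cells at median depths of 10498 to 14831 UMIs. In monocyte-like cells, by contrast, Clec4e was at 368, 388, 383 and 267 CPM and Clec4d at 149, 127, 166 and 66.2 CPM, above the T cell-like level in every library. Their 8 neutrophil markers summed to 3910 to 6575 CPM. There Ribavirin-OVA was the lowest library for both genes, and the fold of Clec4d in the ribavirin pair was 0.398 (0.339 to 0.465).

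The unnamed cluster 5 held Clec4n at 743 CPM in Vehicle, 657 in Vehicle-OVA, 704 in Ribavirin and 758 in Ribavirin-OVA, with no separation by OVA or ribavirin. It held Clec4e at 481, 510.4, 689 and 483 CPM and Clec4d at 134, 129, 184 and 129 CPM. Mrc1, Clec10a, Mgl2, Cd209a, Cd209d and Clec9a were each at 13.2 CPM or less there.

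Over all 9 receptors in macrophage-like cells, 3 were called higher with OVA in the vehicle pair (Mrc1, Clec4e and Clec4d), beside 10.9% of all 11748 genes tested, and 1 was called lower (Clec9a), beside 6.25%. In the ribavirin pair 2 were called higher (Mrc1 and Cd209d), beside 9.95% of 11593 genes, and 2 lower (Clec4d and Clec9a), beside 4.35%. Mrc1 and Clec9a were thus called the same way in both pairs, but the call of Clec9a was lost in the vehicle pair without cluster 4 (log2 ratio of -0.87) and in the ribavirin pair with the mean of single-cell CPM (-0.37). Ribavirin without OVA gave no call among the 9 in either direction, beside 1.48% of 11979 genes called higher and 0.342% called lower. Ribavirin with OVA gave 2 higher (Cd209a and Cd209d), beside 2.74% of 11239 genes, and 3 lower (Clec4n, Clec4e and Clec4d), beside 2% of them. The median log2 ratio of the 9 receptors with OVA was -0.21 in the vehicle pair and 0.27 in the ribavirin pair, whereas that of all genes tested was 0.23 and 0.27 (0.20 and 0.24 with 1 CPM added to each level, as in the medians given for the other classes). Relative to the median of all genes, the 2 pairs gave Mrc1 log2 ratios of 2.17 and 2.25, and Clec4e in the ribavirin pair then passed the limit at -1.21.

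**Figure D5:**
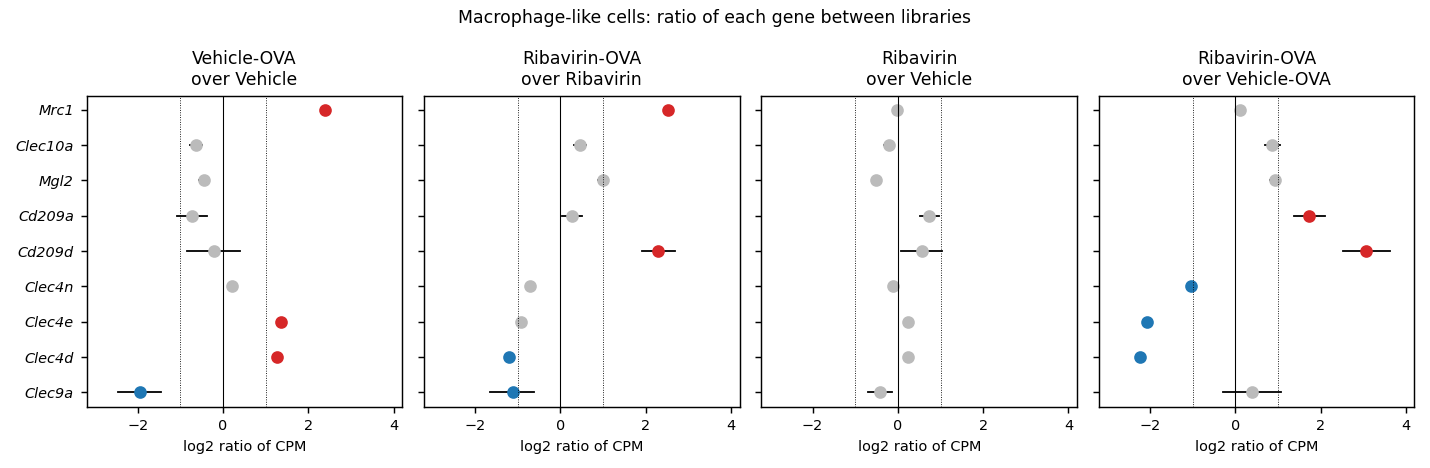
Fold change (log2) of the 9 receptors in macrophage-like cells for the 4 library pairs, with exact binomial 95% intervals, in red where called higher, in blue where called lower and in grey where not called, and with dotted lines at 2-fold. Mrc1 stands at 2.40 and 2.52 in the OVA pairs and near 0 in the ribavirin pairs, whereas Clec4e and Clec4d stand on opposite sides of 0 in the 2 OVA pairs.

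In monocyte-like cells 6 receptors had enough UMIs. In the vehicle pair 2 were called higher (Mrc1 and Clec10a) and 1 lower (Cd209a), beside 6.67 and 2.68% of all genes. In the ribavirin pair 1 was called higher (Mrc1) and 2 lower (Cd209a and Clec4d), beside 9.83 and 2.9%. Clec10a in these cells was at 9.05, 23.4, 12.8 and 20.6 CPM, with OVA folds of 2.58 (1.70 to 3.98) and 1.61 (1.12 to 2.32), across the same difference in subclusters. In cDC2-like cells 3 were called higher in the vehicle pair (Mrc1, Clec4e and Clec4d) and 0 lower, beside 14.9 and 4.28%, and in Vehicle-OVA the last 2 of these were below the T cell-like level. In the ribavirin pair 2 were called higher (Mrc1 and Mgl2) and 1 lower (Clec9a, from 13 UMIs), beside 12.5 and 2.95%. The median log2 ratio of all genes with OVA was 0.26 and 0.33 in monocyte-like and 0.36 and 0.38 in cDC2-like cells.

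Of 30 other lectin receptor genes, 20 had enough UMIs in macrophage-like cells in the vehicle pair, and 4 were called higher and 7 lower with OVA, beside 10.9 and 6.25% of all genes. In the ribavirin pair 19 had enough, and 5 were called higher and 3 lower, beside 9.95 and 4.35%. The list's median log2 ratio was -0.20 and 0.26, beside 0.23 and 0.27 for all genes. Olr1, which encodes the oxidised LDL receptor LOX-1, was 13.2-fold and 7.09-fold higher, at 6.76, 89.2, 8.16 and 57.8 CPM, and it was also a leading gene of neutrophil-like cluster 2. Cd209e, another relative of DC-SIGN, was 3.29-fold and 28.5-fold higher, from 12 to 183 UMIs. Clec4b1, a further gene of the Clec4 family, was lower at folds of 0.125 and 0.212. Cd209f was lower at folds of 0.0226 and 0.240, with 5 and 23 UMIs in the OVA libraries.

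Of 25 genes of the signalling pathway below these receptors, all had enough UMIs in macrophage-like cells. With OVA 3 were called higher (Malt1, Prkcd and Nfkb1) and 2 lower (Tyrobp and Nfatc2) in the vehicle pair, and 1 higher (Prkcd) and 2 lower (Tyrobp and Fcer1g) in the ribavirin pair. Of all genes tested, 10.9 and 6.25% were called higher and lower in the vehicle pair, and 9.95 and 4.35% in the ribavirin pair. The median log2 ratio of the signalling list was 0.23 and -0.05. Prkcd, the kinase that phosphorylates CARD9, was at 221, 504, 231 and 531 CPM, with folds of 2.28 (2.22 to 2.34) and 2.30 (2.24 to 2.37). Tyrobp, which encodes the adaptor DAP12, was at 2548, 1175, 2407 and 1115 CPM, lower in both OVA libraries. Fcer1g, the FcRγ adaptor of Dectin-2 and Mincle, was at 2980.1, 1769, 2905 and 1398 CPM. It too was lower in both OVA libraries, with folds of 0.594 (0.587 to 0.600) and 0.481 (0.475 to 0.488), and Syk and Card9 stayed within the limit in both pairs. Fcer1g, Syk and Card9 were singled out after their values were seen.

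The gene whose level followed each receptor most closely was sought over 40 points, 10 classes in each of 4 libraries, among 14623 genes. As the points share libraries and depth, the correlations of log2 levels are given as a description. Clec4e and Clec4d were each other's closest match (r = 0.988), followed in both cases by Fpr1 and Cxcl2. Cd209d was closest to Cd209c (r = 0.955), and Cd209a to Cd209d (r = 0.919). Clec10a was closest to Kdr (r = 0.937), Mgl2 to Gsg1 (r = 0.881) and Clec9a to Gpr4 (r = 0.926). Clec4n was closest to Fcgr3 (r = 0.942), which encodes an activating IgG receptor that also uses FcRγ, and Mrc1 was closest to Nxpe5 (r = 0.908), followed by Gm19434 and Dab2, an endocytic adaptor.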

How the data were processed

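Single-cell RNA-seq was made from CD45+ nasal mucosa cells, 1 library for each of 4 groups. The authors deposited integer UMI counts for each gene and barcode, not normalized, and Cell Ranger 5.0.0 and mm10 are named in the submitters' processing notes. Cells were kept where they had 200 genes or more, a depth of 500 UMIs or more, and mitochondrial UMIs below 10%. Doublets were marked and removed by a rewritten form of Scrublet's procedure (0.4% expected per 1000 barcodes), which marked 4.3, 1.51, 3.25 and 0.715% of cells, in the order of libraries used in the report, below the expected 10.7, 7.23, 8.39 and 3.78%, so doublets remain. The cells of all libraries were clustered together with no batch correction (2000 variable genes, 30 principal components, 15 neighbours, Leiden at resolution 1, and at 0.5 within clusters of at least 200 cells), leaving out the receptors, the other lectins and the signalling genes. This gave 31 clusters, of which 5 stayed unnamed.

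Clusters were named from listed markers where at least 3 were found at 2-fold or more in at least 10% of cells and the 10 leading genes held no more markers of another class than of their own. This naming rule was set after the clusters were seen, the last of 3 tried. By it cluster 8 was named cDC1-like. Its cells were then put into cDC1-like, cDC2-like or migratory DC-like classes, or left unnamed, by the names of their subclusters. The other clusters were kept whole, whatever the names of their subclusters. UMIs were summed by class and library into CPM, the 121 genes that share a symbol being kept apart by identifier. The receptors and gene lists were chosen with earlier results of these data known. All receptors are named, as are up to 4 genes of each list called the same way in both OVA pairs, those with the larger ratios, and the 3 genes most like each receptor. Correlations used log2(CPM + 1) of genes with at least 200 UMIs. No test was made, since each group had 1 library, and depth sets the width of the counting intervals. The intervals were checked on simulated counts. In all 12 alternatives were planned and 3 were added after seeing the data. Versions were Python 3.11.15, numpy 2.4.6, scipy 1.17.1, pandas 2.3.3, scanpy 1.11.5, leidenalg 0.10.2, python-igraph 0.11.9 and scikit-image 0.26.0. Gene positions are from GENCODE and promoters from RefSeq, both on GRCm38.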

Additional observations from a re-analysis of the deposited data

Results flagged for a closer look

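The log2 ratio with OVA had opposite signs in the vehicle and ribavirin pairs for several receptors, with counting intervals that left out 0 in both. As each group had 1 library, the difference between the pairs was not tested. In macrophage-like cells Clec10a was at -0.64 in the vehicle pair and 0.45 in the ribavirin pair. Mgl2 was at -0.45 and 0.99, and Cd209a at -0.73 and 0.27. The Clec4 genes had the opposite signs, with Clec4n at 0.21 and -0.72, Clec4e at 1.37 and -0.94, and Clec4d at 1.27 and -1.20. Several of these signs depended on the clustering. At resolution 2 Cd209a was at 0.77 and -1.69, Mgl2 at -0.0073 in the ribavirin pair and Clec4e at 0.52 there. Without cluster 4 Mgl2 was at 0.33 and Cd209a at 0.45 in the vehicle pair, and Clec4e at 0.78 in the ribavirin pair. With macrophage-like subclusters Cd209a was at 0.18 and -0.89 and Clec4n at -0.036 in the vehicle pair.

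In neutrophil-like cells Clec4e was at 0.97 in the vehicle pair and -0.67 in the ribavirin pair, and Clec4d at 0.45 and -1.35. In cDC2-like cells Clec4e was at 2.69 and -0.97, at levels near those of T cell-like cells.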

How the results depend on the processing

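No paired analysis was possible because each group had 1 library. The call of Mrc1 with OVA in macrophage-like cells was kept in 15 of 15 alternatives in both pairs, with log2 ratios of 1.15 to 2.44 and 1.72 to 2.63, and so were the lower calls of Clec4e (-2.22 to -1.71) and Clec4d (-2.32 to -1.96) between the OVA libraries. Of the counts of receptors called in macrophage-like cells, 108 stayed within 1.5 times the reported value and 12 did not. In the vehicle OVA pair the number called higher was 1 with the T cell-like level subtracted, and the number called lower was 2 with macrophage-like subclusters of any cluster. In the ribavirin OVA pair the number called higher was 4 with a mitochondrial limit of 20%, 4 with doublets kept, 1 with subclusters and 4 without cluster 4, and the number called lower was 1 with the mean of single-cell CPM and 1 without cluster 4. For ribavirin without OVA the number called higher was 2 at resolution 2 and 1 without cluster 4, and for ribavirin with OVA it was 1 at resolution 2 and 0 with subclusters. With subclusters the log2 ratio of Cd209d became -0.53 in the ribavirin OVA pair, and those of Cd209a and Cd209d became -0.60 and -0.14 for ribavirin with OVA. The class with the highest Clec4n changed, by log2 differences of -0.013 at resolution 0.5, -0.25 with classes from single-cell markers, -0.018 with subclusters and -0.19 without cluster 4. The cause was not tested. Subclusters, the class without cluster 4 and the subtraction were chosen after seeing the data. The macrophage-like class held 1678 to 5144 cells of Vehicle and 726 to 2010 of Ribavirin-OVA over the alternatives.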

Other observations

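In pDC-like cells Clec4n was at 10.4 CPM in Vehicle, 15.6 in Vehicle-OVA, 6.27 in Ribavirin and 4.24 in Ribavirin-OVA, near the T cell-like level, whereas Clec10a, Cd209d and Clec9a were each at 96.2 CPM or more in every library. Within neutrophil-like cluster 19, led by Camp and Ngp, Clec4e was at 405, 722, 634 and 612 CPM in the same order, below the other neutrophil-like clusters in each library. Cluster 10, led by Mmp8 and Retnlg, held Clec4e at 1651, 2558, 2531 and 1738 CPM.

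An unnamed cluster of 564 cells, led by Hist1h2ap, Endou and Stac2, held 531 cells of Ribavirin-OVA and 7 to 19 of each other library, and it was in no comparison.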
